A study of Mus musculus with 26 samples.

Results

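Interferon regulatory factors (IRFs) are a family of transcription factors, and 8 of its members were followed here across 8 groups of mouse blood cells: Irf1, Irf2, Irf3, Irf4, Irf5, Irf7, Irf8 and Irf9. The members were chosen by name, as the probe sets that the array annotation assigns to 1 of these symbols only, with the probe set of highest mean over all arrays taken for each gene. All 8 were found, out of 19937 genes represented in the same way. Irf1 had 2 such probe sets, and each of the other members had 1.

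The data came from 26 Affymetrix arrays of cells of strain C57BL/6. Long-term hematopoietic stem cells (LT-HSC, n = 4) and granulocyte macrophage progenitors (GMP, n = 4) were sorted from the bone marrow of mice labelled as wild type, with no age stated. The other arrays held immortalized cell lines derived from LT-HSC or from GMP and grown in liquid medium, with doxycycline (dox) or without it. Of the LT-HSC-derived lines, 2 were profiled after 48 h and 3 after 72 h in the presence of dox, and 3 at each of these times in its absence. Of the GMP-derived lines, 4 were profiled in the presence and 3 in the absence of dox, all at 48 h. The series concerns MLL-AF9, a fusion of the MLL (KMT2A) and AF9 (MLLT3) genes that drives acute myeloid leukaemia and that dox is known to turn on in inducible systems of this type. Which promoter drives the fusion is not stated in these sources, nor whether the hours run from the addition or from the removal of dox. Each cultured replicate is a named line (B6-1, B6-2 and B6-3 for LT-HSC, and these names and F6-6 for GMP), whereas the sorted replicates are labelled as biological replicates without naming the animals.

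IRF proteins bind DNA through a conserved domain that reads GAAA repeats, as found in the interferon-stimulated response element (ISRE) of interferon-induced genes. Irf3 and Irf7 are activated by kinases downstream of nucleic acid sensors and switch on interferon genes, Irf9 is part of the complex that answers type I interferon, Irf1 activates and Irf2 largely represses interferon-responsive promoters, and Irf5 relays Toll-like receptor signals to inflammatory cytokine genes. Irf4 and Irf8 are restricted mostly to blood cells, bind DNA weakly alone and act with partners such as PU.1 (Spi1). In myeloid progenitors Irf8 is known to favour monocyte and dendritic cell output over granulocytes.

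Labels were checked against marker genes. In sorted GMP all 10 GMP markers were higher and all 10 measured LT-HSC markers lower than in sorted LT-HSC. The LT-HSC-derived lines did not look like sorted LT-HSC by these lists: their mean LT-HSC marker signal lay between 5.56 and 6.23 on single arrays, against 8.26 to 8.36 in sorted LT-HSC, and their mean GMP marker signal lay between 8.82 and 9.42, against 6.26 to 6.59. T and NK cell markers were low throughout, with 0 of 10 above the array median in any group. All values are log2 probe set signals whose array medians lay between 5.81 and 5.91, and the number of arrays limits the precision. In bulk RNA of this kind, fewer cells of a type and less RNA per cell cannot be told apart.

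Several IRF genes are themselves known targets of interferon signalling. The promoters of Irf1, Irf2 and Irf8 are shown because these genes separated sorted GMP from sorted LT-HSC by the largest margins and were the only members with a match to the motifs searched. RefSeq start sites of assembly GRCm38.p6 gave 11 windows for the 8 members, each reaching 250 bases before to 50 bases after the start. The motifs, read on both strands, were an ISRE core (GAAA, any 2 bases, GAAA), a gamma-activated site or GAS (TTC, any 3 bases, GAA) and an ETS-IRF composite site (GGAA, any 2 bases, GAAA), which can overlap an ISRE core. An ISRE core was present in 3.44% of all 32851 such windows, a GAS in 8.3% and a composite site in 2.72%. The 250 bases before the start are printed 5′ to 3′ on the gene's strand, which is the plus strand for all 3 genes, with the matches in capitals: chr11:53769764-53770013 for Irf1, chr8:46739495-46739744 for Irf2 and chr8:120736108-120736357 for Irf8.
Irf1 promoter: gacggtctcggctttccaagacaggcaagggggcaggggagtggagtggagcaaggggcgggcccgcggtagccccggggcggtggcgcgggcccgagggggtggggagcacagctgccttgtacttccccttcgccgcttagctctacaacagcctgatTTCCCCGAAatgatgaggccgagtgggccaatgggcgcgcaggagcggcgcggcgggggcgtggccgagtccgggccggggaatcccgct
Irf2 promoter: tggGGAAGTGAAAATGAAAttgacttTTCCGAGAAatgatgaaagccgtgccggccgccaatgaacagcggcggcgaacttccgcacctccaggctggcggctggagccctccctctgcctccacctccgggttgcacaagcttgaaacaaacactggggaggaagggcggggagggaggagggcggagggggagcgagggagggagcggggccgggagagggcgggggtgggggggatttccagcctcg
Irf8 promoter: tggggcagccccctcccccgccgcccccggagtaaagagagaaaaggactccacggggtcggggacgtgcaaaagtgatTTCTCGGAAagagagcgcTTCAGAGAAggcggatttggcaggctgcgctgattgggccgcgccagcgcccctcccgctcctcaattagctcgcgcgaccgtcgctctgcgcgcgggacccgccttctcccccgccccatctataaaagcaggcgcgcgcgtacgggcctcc
Irf1 carried 1 GAS, from position -90 to position -82 relative to the start. Irf2 carried a composite site from -247 to -238 that overlapped an ISRE core from -241 to -232, followed by a GAS from -224 to -216. Irf8 carried 2 GAS matches, from -171 to -163 and from -153 to -145. Irf1 and Irf8 each have a further start site whose window held no match. These are matches of letters, not measured binding sites, and a window without a match says only that these letters are not in it.

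Members differed widely in how far they moved over the 8 groups. The highest and lowest group means of Irf8 were 2.71 log2 apart, a span larger than that of 98.1% of all genes. The spans were 1.57 for Irf4, 1.21 for Irf1, 1.02 for Irf2, 0.91 for Irf5, 0.82 for Irf9 and 0.73 for Irf7, all above the median gene's span of 0.34. Irf3 was the exception, with a span of 0.20, smaller than that of most genes (19.1% of genes had a smaller one). Irf1, Irf2, Irf3, Irf5 and Irf9 lay above the array median on all 26 arrays and Irf8 on 24 of them. Irf4 did so on 3 arrays and Irf7 on 1, so the sizes of their differences are uncertain.

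**Figure D1:**
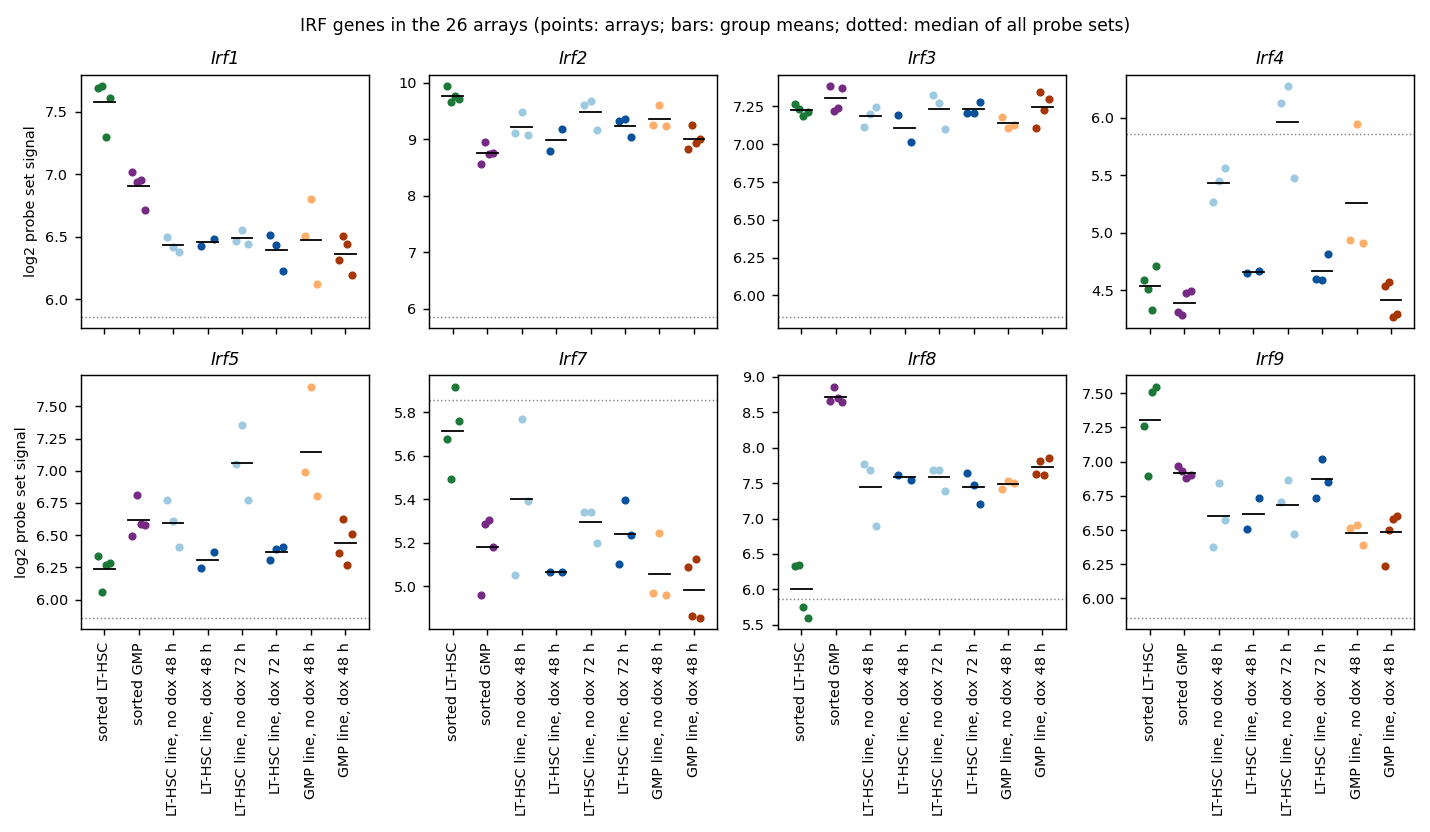
Log2 probe set signal of each IRF gene (y axis) in the 8 groups (x axis). Points are single arrays, horizontal bars are group means and the dotted line is the median of all probe sets. Irf8 lies between 8.65 and 8.86 in sorted GMP, above all other arrays, and Irf4 is at least 4.91 on every array of a line without dox and at most 4.81 on every other array.

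The sorted populations show the family in the normal counterparts of the lines (n = 4 and 4). Of the 8 members, 6 differed between sorted GMP and sorted LT-HSC, where 32.1% of all genes did. A difference was called when its p from limma, adjusted for all genes by the Benjamini-Hochberg method, was under 0.05. Irf8 and Irf5 were higher in GMP (16.8% of all genes were higher), and Irf1, Irf2, Irf7 and Irf9 were lower (15.3% of all genes were lower). Irf3 and Irf4 were not called.

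In the cultured lines dox was associated with less Irf4 and Irf5. In LT-HSC-derived lines 0 of 8 members were called at 48 h, where 0.441% of all genes were called by limma, and Irf4 and Irf7 had an unadjusted p under 0.05. At 72 h Irf4 and Irf5 were called, both lower with dox, against 7.15% of all genes called (3.43% higher and 3.72% lower). The same 2 members were called in GMP-derived lines, again lower with dox, against 10.9% of all genes (5.75% higher and 5.18% lower). The groups with 2 dox arrays at 48 h gave the least precision.

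The differences of the dox response between settings were tested directly. Between GMP-derived and LT-HSC-derived lines at 48 h, 0 members were called for a different dox response (0.231% of all genes were called), and none had an unadjusted p under 0.05. Between 72 h and 48 h in LT-HSC-derived lines 0 members were called (0% of all genes), and again none had an unadjusted p under 0.05. The largest of these differences were -0.42 ± 0.23 for Irf5 by origin (adjusted p = 0.672) and -0.52 ± 0.30 for Irf4 by time (adjusted p = 0.862).

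The lines were also compared by cell of origin and by time. With dox at 48 h, 0 of 8 members were called between GMP-derived and LT-HSC-derived lines (2.11% of all genes), and none had an unadjusted p under 0.05. Without dox at 48 h Irf5 alone was called, higher in GMP-derived lines, where 6.80% of all genes were called; Irf7 had an unadjusted p of 0.0208. Between 72 h and 48 h 0 members were called in LT-HSC-derived lines with dox (0% of all genes) and without it (0.181%); without dox Irf4 and Irf5 had an unadjusted p under 0.05.

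Cultured lines were also set against the sorted cells of their origin. Members called against sorted LT-HSC numbered 5 with dox at 48 h (29.2% of all genes called), 5 with dox at 72 h (33.9%), 5 without dox at 48 h (35.2%) and 6 without dox at 72 h (35.0%). Against sorted GMP, 3 members were called in GMP-derived lines with dox (19.8%) and 6 without (23.5%). These comparisons share their sorted samples. Immortalization, culture and the sort cannot be told apart in them.

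**Figure D2:**
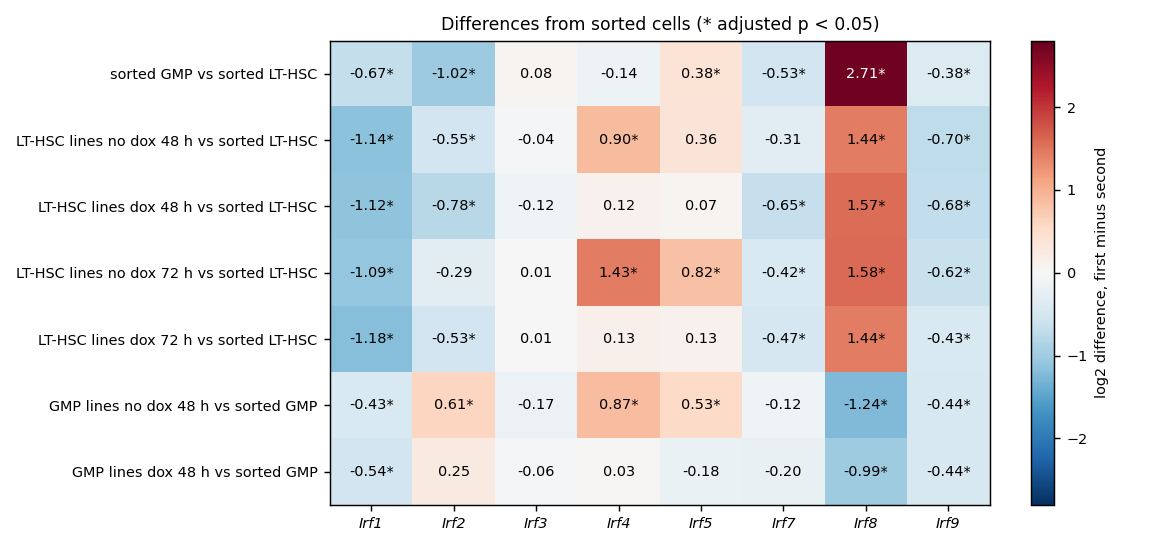
Log2 differences of the 8 IRF genes (columns) between sorted GMP and sorted LT-HSC and between cultured lines and the sorted cells of their origin (rows), with colour from blue (lower in the group named first) to red (higher). Asterisks mark an adjusted p under 0.05. Irf8 reads 2.71 in the top row, 1.44 to 1.58 in lines over sorted LT-HSC, and -1.24 and -0.99 in lines against sorted GMP.

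Irf8, the monocyte and dendritic cell factor, had the largest difference of the family. Its signal in sorted LT-HSC was 6.33, 6.35, 5.75 and 5.60 on the 4 arrays, and in sorted GMP 8.66, 8.86, 8.70 and 8.65. The GMP arrays were tightly grouped, the LT-HSC arrays were spread over 0.75 log2, and the groups were far apart. The difference was 2.71 ± 0.16 (SE), or 6.56-fold (adjusted p = 2.09e-12), and it was called under every alternative tried, with differences between 2.58 and 2.83.

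Every cultured array held Irf8 at a level between those of the sorted cells. LT-HSC-derived lines gave 7.62 and 7.54 with dox at 48 h, and 7.65, 7.47 and 7.20 with dox at 72 h. Without dox they gave 7.77, 7.69 and 6.89 at 48 h, and 7.69, 7.69 and 7.39 at 72 h. GMP-derived lines gave 7.63, 7.81, 7.61 and 7.86 with dox, and 7.42, 7.53 and 7.50 without. The highest sorted LT-HSC array (6.35) was thus below the lowest cultured array (6.89), and the lowest sorted GMP array (8.65) was above the highest cultured array (7.86). Against sorted LT-HSC the lines were higher by 1.57 ± 0.20 and 1.44 ± 0.18 with dox at 48 h and 72 h, and by 1.44 ± 0.18 and 1.58 ± 0.18 without (all adjusted p at most 1.02e-06). Against sorted GMP the GMP-derived lines were lower, at -0.99 ± 0.16 with dox (adjusted p = 7.72e-05) and -1.24 ± 0.18 without (adjusted p = 1.04e-05).

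No comparison among the cultured lines called Irf8. GMP-derived minus LT-HSC-derived lines gave 0.04 (95% interval -0.36 to 0.43) without dox and 0.15 (-0.27 to 0.56) with dox at 48 h, each far smaller than the difference between the sorted cells. The dox difference was 0.13 ± 0.21 at 48 h and -0.15 ± 0.19 at 72 h in LT-HSC-derived lines, and 0.25 ± 0.18 in GMP-derived lines (adjusted p = 0.989, 0.73 and 0.516). In the GMP-derived lines the 4 arrays with dox nevertheless lay above the 3 without it, and the 95% interval of the difference ran from -0.12 to 0.61. Taken line by line, dox went with less Irf8 in all 5 LT-HSC-derived pairs (-0.21 to -0.04), where lines B6-2 and B6-3 count at both times. It went with more in all 3 GMP-derived pairs (0.11 to 0.28). The test of a different dox response between origins at 48 h gave 0.11 ± 0.28 (adjusted p = 0.977). It ran from -0.05 to 0.39 over the alternatives, the highest being without the no-dox line B6-1, and was not called in any. The group difference at 48 h had the other sign than its 2 pairs because line B6-1, at 6.89, was profiled without dox only.

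Irf4, which shares the Spi1-bound composite sites with Irf8 and is known for its part in plasma cells and dendritic cells, was low in sorted cells. It gave 4.59, 4.51, 4.32 and 4.71 in sorted LT-HSC and 4.31, 4.28, 4.48 and 4.49 in sorted GMP, and the difference of -0.14 ± 0.17 was not called (adjusted p = 0.624). The sorted groups overlapped and lay well below the array medians.

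In lines without dox Irf4 was higher than anywhere else. Without dox the LT-HSC-derived lines gave 5.27, 5.45 and 5.57 at 48 h and 6.13, 6.28 and 5.47 at 72 h, while those with dox gave 4.65 and 4.67 at 48 h and 4.60, 4.59 and 4.81 at 72 h. GMP-derived lines gave 4.93, 5.94 and 4.91 without dox and 4.53, 4.57, 4.27 and 4.29 with it. The arrays with and without dox did not overlap in any of the 3 settings. At 72 h the difference was -1.29 ± 0.20, or 2.45-fold lower with dox (adjusted p = 0.000234), and in GMP-derived lines it was -0.85 ± 0.19 (1.80-fold, adjusted p = 0.00333). The latter call ended without the no-dox line B6-3, the array at 5.94 (difference -0.51, adjusted p = 0.0539, against 0.00136 at the lowest over the alternatives). At 48 h in LT-HSC-derived lines the difference was -0.77 ± 0.22, with an adjusted p of 0.202 (0.051 to 0.741 over the alternatives). Line by line, Irf4 was lower with dox in 8 of 8 pairs, which come from 6 lines since LT-HSC-derived lines B6-2 and B6-3 count at both times, by -1.69 to -0.40.

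Lines with dox had Irf4 near the sorted level, and lines without it did not. Without dox the LT-HSC-derived lines exceeded sorted LT-HSC by 0.90 ± 0.19 at 48 h (adjusted p = 0.000451) and 1.43 ± 0.19 at 72 h (adjusted p = 1.02e-06), and the GMP-derived lines exceeded sorted GMP by 0.87 ± 0.19 (adjusted p = 0.00114). With dox these differences were 0.12, 0.13 and 0.03, none called, with 95% intervals that reached 0.57, 0.52 and 0.38. The Irf4 difference of 72 h minus 48 h without dox was 0.53 ± 0.20 and was not called (adjusted p = 0.269).

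Irf5, the relay from Toll-like receptors to cytokine genes, was also lower with dox in culture. LT-HSC-derived lines without dox gave 6.78, 6.61 and 6.41 at 48 h and 7.06, 7.36 and 6.78 at 72 h, and those with dox gave 6.25 and 6.37 at 48 h and 6.31, 6.39 and 6.41 at 72 h. GMP-derived lines gave 6.99, 7.65 and 6.80 without dox and 6.36, 6.62, 6.27 and 6.51 with it. Arrays with dox were lower than all arrays without it in each setting, by the smallest margin in LT-HSC-derived lines at 48 h. The differences were -0.70 ± 0.16 at 72 h (1.62-fold, adjusted p = 0.00815), -0.71 ± 0.15 in GMP-derived lines (1.63-fold, adjusted p = 0.00235) and -0.29 ± 0.18 at 48 h in LT-HSC-derived lines (adjusted p = 0.854). In GMP-derived lines the difference shrank to -0.46 without the no-dox line B6-3 and stayed called. The call at 72 h ended without the no-dox line B6-3 (adjusted p = 0.0549, the highest over the alternatives, the lowest being 0.00226). In 8 of 8 pairs from the same 6 lines Irf5 was lower with dox, by -1.03 to -0.24.

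Irf5 also differed with origin. It gave 6.34, 6.06, 6.27 and 6.29 in sorted LT-HSC and 6.49, 6.81, 6.59 and 6.58 in sorted GMP, a difference of 0.38 ± 0.14 (1.30-fold, adjusted p = 0.039) between groups that did not overlap. That call ended without any 1 of 6 arrays (replicates 2, 3 and 4 of either group), with adjusted p between 0.0569 and 0.131, and the lowest under any alternative was 0.00563. Without dox at 48 h GMP-derived lines were 0.55 ± 0.16 higher than LT-HSC-derived lines (adjusted p = 0.0386). This call ended when only these groups were fitted (0.217), without LT-HSC-derived line B6-3 (0.0858) or B6-1 (0.2), and without GMP-derived line B6-3 (0.319), and its lowest value over the alternatives was 0.00918. Against sorted cells Irf5 was higher without dox, by 0.82 ± 0.15 in LT-HSC-derived lines at 72 h (adjusted p = 8.68e-05) and by 0.53 ± 0.15 in GMP-derived lines (adjusted p = 0.0111), and the second of these ended without GMP-derived line B6-3 (0.172) or with only the groups compared (0.0522). Without dox at 48 h the LT-HSC-derived lines were 0.36 ± 0.15 above sorted LT-HSC with no overlap of arrays, which missed the threshold (adjusted p = 0.0679, and 0.0274 to 0.257 over the alternatives). With dox the differences from the sorted cells were 0.07, 0.13 and -0.18, none called. Without dox the Irf5 difference of 72 h minus 48 h was 0.47 ± 0.16 between arrays that did not overlap, and it was not called (adjusted p = 0.23).

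**Figure D3:**
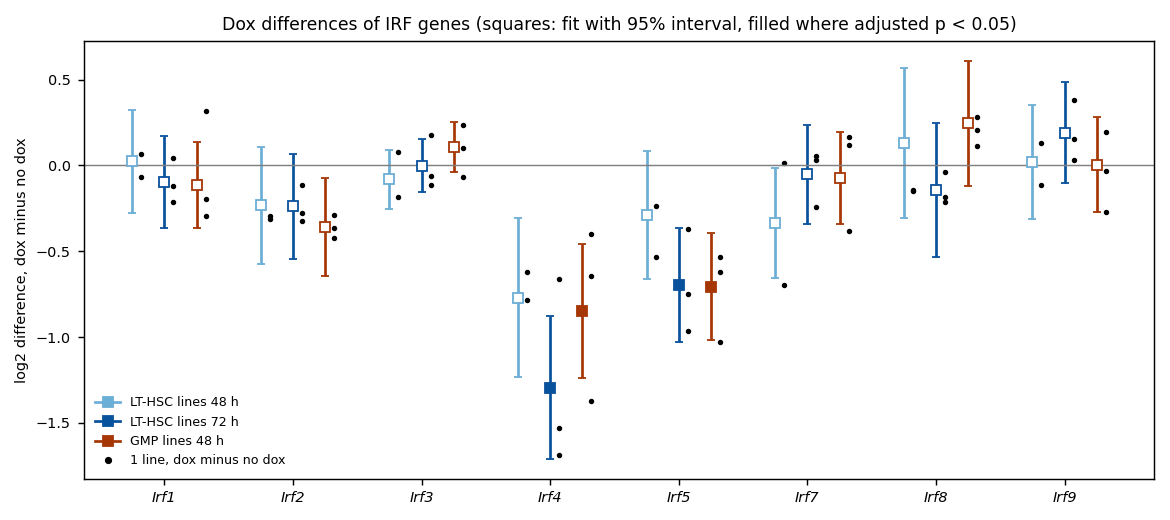
Log2 difference with dox minus without dox (y axis) for each IRF gene (x axis) in LT-HSC-derived lines at 48 h and 72 h and GMP-derived lines at 48 h. Squares are fitted differences with 95% intervals, filled where the adjusted p was under 0.05, and black dots are single lines profiled both ways. Irf4 and Irf5 are filled and negative at 72 h and in GMP-derived lines, and their 8 dots lie below 0, as do those of Irf2, whose squares are open.

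Several monocyte and neutrophil markers moved with Irf4 and Irf5, while dendritic cell markers did not do so in GMP-derived lines. Of 10 measured monocyte and macrophage markers, 1 was lower with dox in LT-HSC-derived lines at 48 h, 7 at 72 h and 6 in GMP-derived lines, and none was higher. Of all genes, 0.441% were called in either direction at 48 h, while 3.72% were lower at 72 h and 5.18% in GMP-derived lines. Their mean signal on single arrays was 7.84 to 8.12 without dox and 6.72 to 6.94 with dox at 72 h, and its median over arrays was 7.51 against 6.82 in GMP-derived lines. Of 10 neutrophil markers, 5 were lower with dox at 72 h and 7 in GMP-derived lines (3.72% and 5.18% of all genes). Of 10 conventional dendritic cell markers, 4 were lower and 1 higher at 72 h (3.72% and 3.43% of all genes), and 0 were called in GMP-derived lines (10.9%). The mean signal of 10 plasmacytoid dendritic cell markers in GMP-derived lines was 6.275 to 6.502 with dox and 6.040 to 6.100 without. At 72 h it was 6.529 to 6.715 with dox and 6.506 to 6.654 without. Of 10 measured B cell markers, 0 were called in any of the 3 dox comparisons (0.441%, 7.15% and 10.9% of all genes). Their mean signal stayed between 4.98 and 5.40 on single arrays, with 2 or 3 of the 10 above the array median in each group. The part of these markers in the Irf4 and Irf5 differences was not tested.

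Irf2, best known as the antagonist of Irf1, was brightest in sorted LT-HSC. It gave 9.94, 9.66, 9.77 and 9.71 there and 8.57, 8.96, 8.73 and 8.75 in sorted GMP. The groups did not overlap, and the difference was -1.02 ± 0.13 (2.02-fold lower in GMP, adjusted p = 6.25e-07), called under every alternative tried. The group means of the cultured lines lay in between, while their single arrays, from 8.80 to 9.67 in LT-HSC-derived and from 8.83 to 9.61 in GMP-derived lines, overlapped the sorted groups. LT-HSC-derived lines were lower than sorted LT-HSC by -0.78 ± 0.16 and -0.53 ± 0.14 with dox at 48 h and 72 h and by -0.55 ± 0.14 without dox at 48 h (adjusted p at most 0.00384), but the difference of -0.29 ± 0.14 without dox at 72 h was not called (adjusted p = 0.114, and from 0.0135 after quantile normalization to 0.536 over the alternatives). GMP-derived lines without dox were higher than sorted GMP by 0.61 ± 0.14 (adjusted p = 0.00187).

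Dox was accompanied by lower Irf2 values in each line, but the group test did not call them. The per-line differences were -0.31 and -0.29 at 48 h and between -0.32 and -0.12 at 72 h in LT-HSC-derived lines, and between -0.43 and -0.29 in GMP-derived lines, so 8 of 8 pairs from 6 lines had the same sign. Line B6-3 was the brightest in every cultured group. The fit without pairing gave -0.36 ± 0.14 in GMP-derived lines (adjusted p = 0.111), and with the line as a block the call was made (adjusted p = 0.0198, the lowest over the alternatives, which reached 0.513). In LT-HSC-derived lines the differences were -0.23 and -0.24 (adjusted p = 0.908 and 0.395).

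Irf1, an activator induced by interferon gamma, was also brightest in sorted LT-HSC, at 7.69, 7.70, 7.30 and 7.61, against 7.02, 6.94, 6.95 and 6.71 in sorted GMP. The difference of -0.67 ± 0.11 (1.59-fold lower in GMP, adjusted p = 3.56e-05) kept its call with the other Irf1 probe set, where it was -0.35 (adjusted p = 0.00931). All cultured arrays lay between 6.12 and 6.80, and the 6 cultured groups overlapped in their order of means. LT-HSC-derived lines were lower than sorted LT-HSC, with log2 differences of -1.12 ± 0.14 and -1.18 ± 0.12 with dox at 48 h and 72 h and -1.14 ± 0.12 and -1.09 ± 0.12 without (adjusted p at most 6.31e-07). With the other probe set these differences were smaller, at -0.71, -0.77, -0.70 and -0.47, and all were called. GMP-derived lines were lower than sorted GMP by -0.54 ± 0.11 with dox (adjusted p = 0.000911) and -0.43 ± 0.12 without (adjusted p = 0.0111). The last call ended with the other probe set (0.0622), with only the groups compared (0.0548) and without line F6-6, the lowest array at 6.12 (0.147). No dox, origin or time comparison among the lines called Irf1.

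The interferon signalling members Irf9 and Irf7 were lower in sorted GMP than in sorted LT-HSC. Irf9 was also lower in all 6 groups of lines than in the sorted cells of their origin, and Irf7 in 3 of them. Irf9, the DNA-binding subunit of the type I interferon complex, gave 7.26, 6.89, 7.51 and 7.54 in sorted LT-HSC and 6.97, 6.93, 6.88 and 6.90 in sorted GMP. The difference was -0.38 ± 0.12 (1.30-fold, adjusted p = 0.0185), but 1 LT-HSC array lay within the GMP range, and the call ended without LT-HSC replicate 3 (0.0746) or 4 (0.0869). All 6 cultured groups were lower than the sorted cells of their origin, by -0.70 to -0.43 for LT-HSC-derived lines and by -0.44 for GMP-derived lines with and without dox. Of these 6 calls, that with dox at 72 h ended with only the groups compared (0.0502), without sorted LT-HSC replicate 4 (0.0571) or without line B6-2 (0.0809), and those of GMP-derived lines ended without line B6-2 with dox (0.0603) or F6-6 without dox (0.0723).

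Irf7, the interferon-induced amplifier of interferon production, was measured by a dim probe set. It gave 5.68, 5.50, 5.92 and 5.76 in sorted LT-HSC and 4.96, 5.29, 5.30 and 5.18 in sorted GMP, groups that did not overlap (-0.53 ± 0.12, adjusted p = 0.00106). LT-HSC-derived lines were lower than sorted LT-HSC by -0.65 ± 0.15 with dox at 48 h, -0.47 ± 0.13 with dox at 72 h and -0.42 ± 0.13 without dox at 72 h (adjusted p = 0.00135, 0.00605 and 0.0134), the last call ending without sorted replicate 3 (0.0512) or line B6-1 (0.0581). The difference without dox at 48 h was -0.31 ± 0.13 (adjusted p = 0.069), in a group that ran from 5.05 to 5.77, and it was called without sorted LT-HSC replicate 2 (0.0319) or line B6-3 (0.00403). GMP-derived lines did not differ from sorted GMP beyond the threshold (-0.20 ± 0.12 and -0.12 ± 0.13). Without dox at 48 h GMP-derived minus LT-HSC-derived lines gave -0.35 ± 0.14 (adjusted p = 0.165), which was called without LT-HSC-derived line B6-2 (difference -0.52, adjusted p = 0.0218, against up to 0.649 over the alternatives). Irf7 did not pass the filter on dim probe sets, so its values rest on a signal below the array median on 25 of 26 arrays.

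Irf3, the constitutively made partner of Irf7, was the steadiest member. Its arrays ran from 7.02 to 7.38, the group means from 7.11 to 7.30, and neighbouring groups overlapped throughout that order. No comparison called it, and the largest difference was 0.19 ± 0.11 (adjusted p = 0.692), in the test of dox by origin. The 95% interval of GMP minus LT-HSC in sorted cells was -0.05 to 0.21, and those of the 3 dox differences lay within -0.25 to 0.25. It was called only after quantile normalization, in GMP-derived lines without dox against sorted GMP (-0.17 ± 0.07 as deposited; adjusted p = 0.0939, with 0.0342 after that step and up to 0.233 under the other alternatives).

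Around the family, genes upstream and downstream were taken from lists made from general knowledge and described by counts. The lists were chosen with earlier results of these data known, so their counts are not independent support. The sizes are uncertain where a group mean lay below the median of all probe sets (5.86), as for Ifnk, Tlr7 and Mx1 in both groups compared and for Il10rb, Rtp4, Tap1, Iigp1, Gbp4, Il15, Ly86 and Ccr2 in the lower group. Of 9 interferon ligand genes, Ifnk alone was called in sorted cells, higher in GMP (0.75 ± 0.17), where 16.8% of all genes were higher. In the 3 dox comparisons 0 ligand genes were called (0.441%, 7.15% and 10.9% of all genes). Receptors and their JAK-STAT relay were mixed in sorted cells: of 11 measured genes 4 were higher and 3 lower in GMP (16.8% and 15.3% of all genes). The interferon gamma receptor chains Ifngr2 and Ifngr1 were higher by 1.65 ± 0.13 and 1.29 ± 0.10, and the shared receptor chain Il10rb by 1.16 ± 0.16. With dox none rose, while 2 fell at 72 h and 4 in GMP-derived lines (3.72% and 5.18% of all genes fell). The kinase Jak2 fell in both (-0.72 ± 0.14 and -0.79 ± 0.13), as did Ifngr2 (-0.69 ± 0.15 and -0.45 ± 0.14). The medians of this list were -0.13 and -0.07, against -0.03 and 0.01 over all genes.

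Sensors and kinases that feed Irf3 and Irf7 had members moving in both directions in sorted cells and downward with dox. Of 19 measured genes 5 were higher and 4 lower in sorted GMP (16.8% and 15.3% of all genes). The RNA sensors Ddx58 (RIG-I) and Ifih1 (MDA5) fell by 2.57 and 1.57 on the log2 scale, while the adaptor Sting1 rose by 1.22. With dox 4 fell at 72 h and 6 in GMP-derived lines (3.72% and 5.18% of all genes fell), and none rose. Tlr7, an endosomal RNA receptor, fell by 1.02 and 1.41, and Myd88, the adaptor through which it reaches Irf5 and Irf7, fell by 0.98 and 0.76. The list medians were -0.14 and -0.09, against -0.03 and 0.01 over all genes. Negative regulators gave 2 higher and 4 lower of 11 in sorted GMP (16.8% and 15.3% of all genes). The phosphatase Ptpn6 (-0.58 ± 0.10 and -0.58 ± 0.09) and the feedback inhibitor Socs3 (-0.51 ± 0.09 and -0.46 ± 0.09) were the members that fell with dox at 72 h and in GMP-derived lines (3.72% and 5.18% of all genes fell).

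Interferon-stimulated genes of the ISRE type, the classical readout of Irf9 and Irf7, were mostly lower outside sorted LT-HSC. In sorted GMP 20 of 27 measured genes were lower and 1 higher (15.3% and 16.8% of all genes), with a median of -0.63 against -0.01 over all genes. Rtp4 (-2.71 ± 0.18), Ifitm1 (-2.35 ± 0.09) and the oligoadenylate synthetase-like gene Oasl2 (-2.24 ± 0.15) were the largest. In LT-HSC-derived lines against sorted LT-HSC, 19 fell with dox at 48 h and 20 at 72 h (14.6% and 17.0% of all genes fell), and without dox 19 fell at 48 h and 17 at 72 h (18.1% and 17.0%), with 2 or 3 rising each time. In these comparisons with sorted LT-HSC 29.2% to 35.2% of all genes were called in either direction. GMP-derived lines had fewer listed genes called against sorted GMP, 8 lower and 2 higher with dox and 6 lower and 3 higher without. Fewer of all genes were called there too, 19.8% with dox and 23.5% without. Ifitm1 was higher than in sorted GMP in both groups of lines, by 2.799 ± 0.091 with dox and 2.956 ± 0.098 without. With dox 2 of 27 fell at 72 h and 4 of 27 in GMP-derived lines (3.72% and 5.18% of all genes fell), and none rose. Mx1 and Zbp1 fell at 72 h (-0.46 ± 0.10 and -0.39 ± 0.10), and Samhd1 (-0.85 ± 0.16), Ifitm3 (-0.52 ± 0.08) and Mx1 (-0.39 ± 0.10) were among those that fell in GMP-derived lines.

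Genes of the interferon gamma and Irf1 response followed with 7 of 15 lower and 2 higher in sorted GMP (15.3% and 16.8% of all genes). The immunity-related GTPase Iigp1 fell by 3.06 and the guanylate-binding protein Gbp4 by 1.86, while Gbp3 rose by 1.16. With dox 1 gene of this list rose and 3 fell at 72 h (3.43% and 3.72% of all genes), and 2 rose and 2 fell in GMP-derived lines (5.75% and 5.18%). Gbp4 rose at 72 h (1.42 ± 0.19), Gbp3 rose in GMP-derived lines (0.87 ± 0.15), and the cytokine Il15 fell in both (-1.08 ± 0.26 and -1.48 ± 0.24). Of 13 antigen processing genes of the MHC class I route, 2 rose with dox at 72 h and 5 in GMP-derived lines (3.43% and 5.75% of all genes rose), none fell, and the other 11 and 8 were not called. The list medians were 0.08 and 0.13. Those named by size were the peptide transporter Tap2 (0.37 ± 0.09 and 0.53 ± 0.08), the peptidase Erap1 at 72 h (0.42 ± 0.10), and the immunoproteasome subunit Psmb8 (0.48 ± 0.07) and Tap1 (0.45 ± 0.10) in GMP-derived lines. Irf1, a known activator of these genes, was not called in either comparison (-0.096 ± 0.130 and -0.115 ± 0.122). The part of Irf1 in these differences was not tested.

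**Figure D4:**
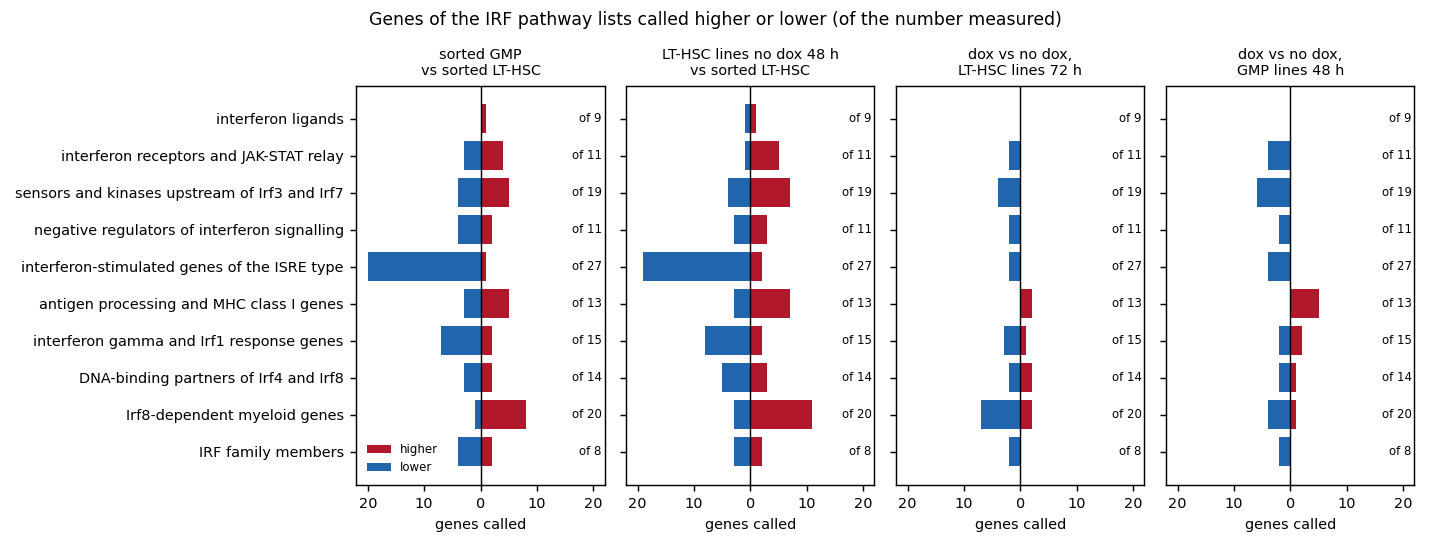
Number of genes called higher (red, right) or lower (blue, left) in each pathway list and in the 8 IRF genes (rows) in 4 comparisons (panels), with the number measured at the right of each row. The longest bars are those of the ISRE-type genes, with 20 of 27 lower in sorted GMP and 19 of 27 lower in the LT-HSC-derived lines at 48 h without dox, while dox lowered 2 and 4 of them.

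DNA-binding partners and Irf8-dependent myeloid genes were read beside Irf4 and Irf8. Of 14 measured partners, 2 were higher and 3 lower in sorted GMP (16.8% and 15.3% of all genes). Spi1 (PU.1) was among the higher (1.67 ± 0.12) and the repressor Etv6 among the lower (-0.58 ± 0.07). With dox Spi1 fell at 72 h (-0.57 ± 0.14) and in GMP-derived lines (-0.47 ± 0.13), Jun fell in both (-1.44 ± 0.29 and -0.94 ± 0.27) and Etv6 rose in both (0.28 ± 0.08 and 0.28 ± 0.08). Of 20 Irf8-dependent myeloid genes, 8 were higher and 1 lower in sorted GMP (16.8% and 15.3% of all genes). Those higher were led by Ly86 (5.35 ± 0.38), the chemokine receptor Ccr2 (4.63 ± 0.23) and the NADPH oxidase subunit Cybb (3.92 ± 0.37). With dox 7 fell and 2 rose at 72 h (3.72% and 3.43% of all genes). In GMP-derived lines 4 fell and 1 rose (5.18% and 5.75%). At 48 h in LT-HSC-derived lines, where 0.441% of all genes were called, Mef2c rose by 0.728 and Slamf7 fell by 0.645. Slamf7 lay below the median of all probe sets in both of these groups. Irf8 itself was not called in any dox comparison, and its part in these differences was not tested. The invariant chain Cd74 fell by 2.42, Cybb by 1.40 and the monocyte receptor Csf1r by 1.36 at 72 h. Cybb fell by 2.19 and Id2 fell by 2.08 in GMP-derived lines, where Mef2c rose by 1.60. Several of these genes are monocyte genes in their own right, and the part of the monocyte marker difference given above was not tested.

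The genes whose pattern was most like that of a member were sought for the 4 members with a span of at least 1 log2, among 2456 other genes of that span, without predicted genes (Gm or Rik symbols), by Pearson r over the 26 arrays. All arrays share the contrast of sorted and cultured cells, so high values are common in such data and carry no test here. For Irf8 the closest were Unc93b1 (r = 0.957), Stom (0.944) and Ly86 (0.936), and over the 8 group means r was 0.971, 0.953 and 0.952. For Irf4 they were Tnfsf9 (0.937), Scel (0.936) and Clec4a1 (0.933). For Irf1 they were Krt18 (0.947), Rtl8c (0.946) and Egr1 (0.943), and for Irf2 Arhgap12 (0.903), Hacd4 (0.899) and F11r (0.883).

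**Figure D5:**
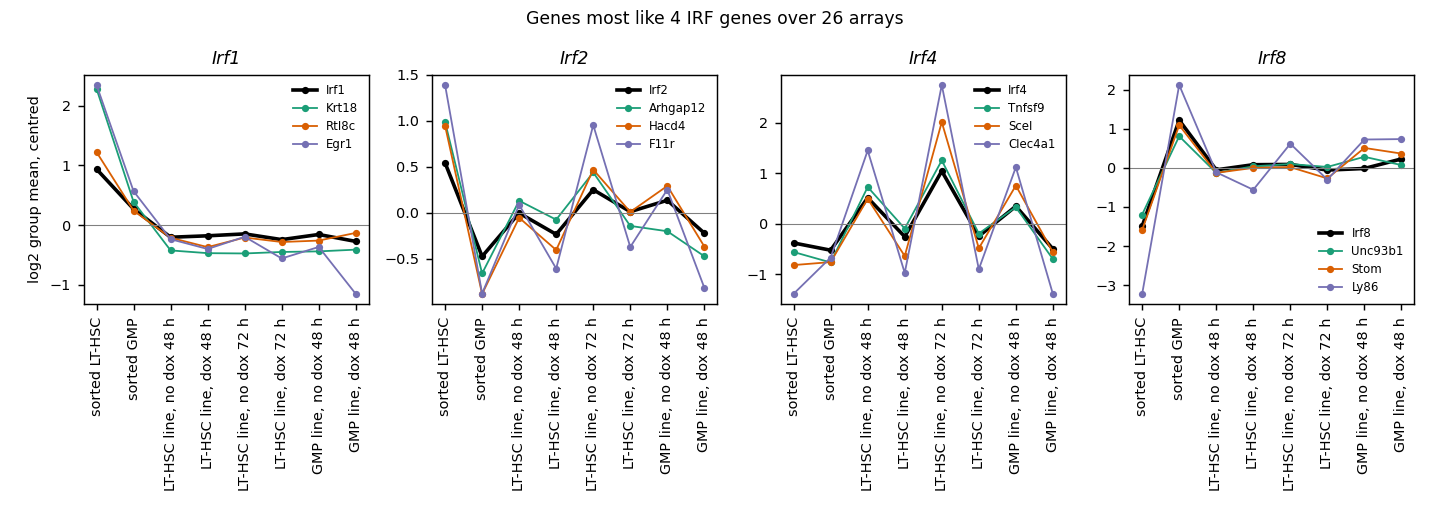
Group means of Irf1, Irf2, Irf4 and Irf8 (black, 1 panel each) and of the 3 genes most like each (coloured), as log2 values minus the mean of the 8 group means (y axis), over the 8 groups (x axis). Irf8 and its neighbours peak in sorted GMP and are lowest in sorted LT-HSC, and Irf4 and its neighbours rise in the 3 groups of lines without dox.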

How the data were processed

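The authors deposited log2 signals of 34760 probe sets for each of 26 Affymetrix arrays. The submitters' processing notes name R 3.1.1 and limma, and the steps from scan to probe set value are not stated in these sources. Of the probe sets, 21640 carried 1 symbol, 1321 several and 11799 none in the annotation, and only those with 1 symbol were used.

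A mean for each of the 8 groups was fitted to all genes in R 4.3.3 by the moderated linear models of limma 3.58.1, for 14 comparisons and 2 interactions. A gene was called at a 2-sided Benjamini-Hochberg adjusted p under 0.05 over 19937 genes. Errors are standard errors of the fit and intervals cover 95%. The script was tested on simulated data. The named genes were the 8 members and, of each of 9 pathway lists, up to 3 called genes with the largest difference. The members and all lists, including 10 marker lists, were chosen with earlier results of these data known.

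Alternatives were centring on the array median, quantile normalization, a filter on dim probe sets (passed by 11591 genes and 7 members), only the groups compared, the other Irf1 probe set, each replicate left out, and a replicate block. Line names in the titles pair cultured arrays within an origin. Deviations from the group means of arrays of 1 line correlated with a median r of 0.252 (-0.057 to 0.466, 15 pairs) in LT-HSC-derived and 0.326 (0.291 to 0.401, 3 pairs) in GMP-derived lines. For dox, time and interactions the block was the line within an origin. For GMP-derived against LT-HSC-derived lines it was the shared line name, with a median r of 0.048 (-0.307 to 0.176, 19 pairs). For sorted cells it was the replicate number. Equal replicate numbers of sorted arrays (0.02 to 0.06, 4 pairs) share only a number.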

Additional observations from a re-analysis of the deposited data

How the results depend on the processing

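Of 128 results for single members, 41 were called; 30 of these stayed called under every alternative and 11 were lost under at least 1. Of the 87 not called, 81 were never called and 6 were called under at least 1. No called difference changed sign. Leaving out each replicate in turn moved the number of members called between 1 and 2 for dox in LT-HSC-derived lines at 72 h, between 1 and 2 for dox in GMP-derived lines, and between 0 and 2 for origin without dox, where fitting only the groups compared gave 0. With the replicate block (line names), 3 members were called for dox in GMP-derived lines, Irf2 being added (adjusted p = 0.0198), and the block changed no other call of a member. No paired analysis was possible for lines against sorted cells because their numbers name lines on one side and sorted samples on the other. Irf7 and most Irf4 values lie below the array median, so signal over background limits their sizes.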
